A study of Mus musculus with 8 samples.

Results

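Resident macrophages are long-lived phagocytes that sit in the connective tissue of most organs, including the prostate, where they clear dying cells, take up extracellular debris and present antigen. Their survival depends on signals through the colony stimulating factor 1 receptor, and their identity is maintained by lineage transcription factors such as PU.1. In whole tissue they are recognised by a small set of transcripts for surface receptors and lysosomal proteins, of which 9 were examined here by symbol: Adgre1, Csf1r, Mrc1, Cd163, Cd68, Fcgr1, Mertk, Lyz2 and Ptprc. All 9 were found among the 36333 genes of the expression table, and 8 of them were among the 13080 genes that reached a TPM of 1 in no fewer than 4 libraries. Fcgr1 did not reach that level and was examined separately.

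The samples are ventral prostates, as 1 RNA-seq library per mouse, from FVB/N mice aged 12 months, with 4 hSKP2-KI and 4 WT animals. SKP2 is the substrate-recognition subunit of an SCF ubiquitin ligase that targets the cell cycle inhibitor p27. In hSKP2-KI mice a P2A-linked human SKP2 coding sequence had been inserted by CRISPR/Cas9 into exon 1 of the endogenous probasin gene, Pbsn, so the probasin promoter, which is active in prostate epithelium, drives the transgene, and WT mice carry no insert. The labels do not say which knock-in line was sequenced. Values are TPM, in which reads per gene are divided by transcript length and every library is scaled to the same total of 1000000, so the number of reads behind a value is unknown and no interval from counts can be given. Skp2 was at 48.1 ± 10.1 TPM in hSKP2-KI and 1.75 ± 0.528 TPM in WT prostates (SD, n = 4 each), and human and mouse SKP2 reads cannot be told apart in this value.

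Scaling matters for every value below. The 3 most abundant genes, which encode ventral prostate secretory proteins, took 40.4% to 45.8% of all TPM in WT and 32.1% to 34.3% in hSKP2-KI libraries. With TPM as deposited, the log2 fold change (hSKP2-KI minus WT, on the log2(TPM + 1) scale) had a median of 0.234 over all genes tested, and after median-ratio scaling it was -0.007. Of the tested genes, 32.7% were higher in hSKP2-KI prostates at an adjusted p under 0.05 (limma, Benjamini-Hochberg) with TPM as deposited, and 6.91% after median-ratio scaling. Both scalings are therefore given. In whole tissue, a larger number of macrophages and more RNA of a gene per macrophage cannot be told apart. The fold changes include an added 1 that makes them smaller than the TPM ratio for genes near 1 TPM.

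Transcripts of resident macrophages were present in every WT prostate and 7 of the 8 tested genes had a log2 fold change above 0 as deposited, of very different size. With TPM as deposited, Cd68, Lyz2, Mrc1 and Csf1r rose in hSKP2-KI prostates, which is 4 of the 8 tested genes (limma, adjusted p under 0.05) against 32.7% of all genes, and 0 fell, also at an unadjusted p under 0.05. Without WT replicate 1 only Cd68 passed as deposited, against 21.7% of all genes, and without any of hSKP2-KI replicates 2, 3 and 4 only Cd68 and Lyz2 did, against 22.3%, 26.7% and 22.0% of all genes. After median-ratio scaling, 0 of the 8 passed the same threshold against 6.91% of all genes, while 3 were higher and 1 was lower at an unadjusted p under 0.05. The median log2 fold change of the 8 genes was 0.69 as deposited and 0.47 after median-ratio scaling. Cd68 and Lyz2 had the largest differences of the 8 under both scalings, and Mertk and Cd163 the smallest as deposited.

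**Figure D1:**
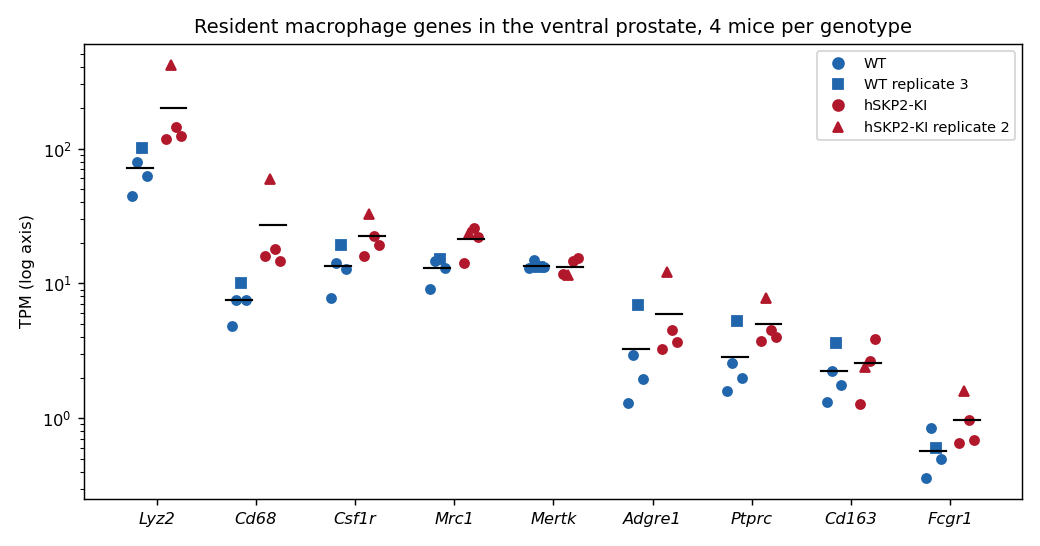
TPM of the 9 resident macrophage genes in each mouse on a log axis, with WT in blue, hSKP2-KI in red and a black bar at the mean of 4 mice. Every hSKP2-KI mouse lies above every WT mouse for Lyz2 and Cd68 only, and hSKP2-KI replicate 2 (triangle) reaches 418.7 and 59.13 TPM for them.

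Cd68 and Lyz2 are the members most closely tied to lysosomes and bacterial killing. Cd68 encodes a heavily glycosylated protein of the late endosome and lysosome of phagocytes. Cd68 was at 4.807, 7.587, 10.06 and 7.47 TPM in WT replicates 1 to 4 and at 16.02, 59.13, 18.1 and 14.77 TPM in hSKP2-KI replicates 1 to 4. The genotypes did not overlap, and hSKP2-KI replicate 2 stood far above the other 3 hSKP2-KI mice, which lay between 14.77 and 18.1 TPM. The mean was 27.0 ± 21.5 TPM in hSKP2-KI and 7.48 ± 2.15 TPM in WT prostates (SD, n = 4 each), a log2 fold change of 1.51 (standard error 0.37, 95% interval 0.69 to 2.33, limma adjusted p = 0.0132). Non-overlap in this direction was found for 34.0% of all tested genes as deposited and for 10.3% after median-ratio scaling, and Cd68 remained without overlap after that scaling. The scaled log2 fold change was 1.26 (95% interval 0.42 to 2.11, limma adjusted p = 0.0596). Without hSKP2-KI replicate 2, Cd68 still rose, with a log2 fold change of 1.06 as deposited (limma adjusted p = 0.00616).

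Lyz2 encodes the M-type lysozyme that degrades bacterial cell walls and is a classical product of macrophages and neutrophils. Lyz2 was at 44.17, 79.86, 100.8 and 62.92 TPM in WT replicates 1 to 4 and at 116.8, 418.7, 145.5 and 124.3 TPM in hSKP2-KI replicates 1 to 4. The genotypes did not overlap as deposited, the lowest hSKP2-KI mouse was close to WT replicate 3, and the genotypes overlapped after median-ratio scaling. The log2 fold change was 1.31 (standard error 0.37, 95% interval 0.49 to 2.14, limma adjusted p = 0.0229) as deposited, and median-ratio scaling gave 1.05 (adjusted p = 0.102). Without hSKP2-KI replicate 2 the value as deposited was 0.89 (limma adjusted p = 0.0212), and without WT replicate 1 it was 1.10 (limma adjusted p = 0.0696). With median-ratio scaling and hSKP2-KI replicate 2 left out, Lyz2 no longer passed (0.63, limma adjusted p = 0.112), whereas Cd68 did (0.82, limma adjusted p = 0.0312), a combination tried after the data were seen. In that setting 4.48% of all genes were higher, and 22.3% were higher without hSKP2-KI replicate 2 as deposited.

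Lyz2 has a neighbour of nearly the same sequence, Lyz1, the P-type lysozyme of Paneth cells. In GRCm38.p6 as annotated by RefSeq, Lyz2 lies at chr10:117277541-117282272 and Lyz1 at chr10:117287795-117292868, with 5522 bases between them. Their coding sequences are both 447 bases long and 95.1% identical, with 22 differing bases. The first 120 coding bases are shown from 5′ to 3′, because they hold 11 of the differences, which are in capitals.
Lyz1: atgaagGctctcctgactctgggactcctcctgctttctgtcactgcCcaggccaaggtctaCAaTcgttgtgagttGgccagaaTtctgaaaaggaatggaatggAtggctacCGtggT
Lyz2: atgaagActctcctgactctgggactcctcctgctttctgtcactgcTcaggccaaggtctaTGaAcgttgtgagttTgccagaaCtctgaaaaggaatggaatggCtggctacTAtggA
Reads from the stretches without a capital could be assigned to either gene, and the assignment rule is not given in the sources used here. Lyz1 was listed at 2.182 to 3.883 TPM in WT and 2.96 to 10.39 TPM in hSKP2-KI prostates, so the level of Lyz2 was many times that of Lyz1 in every library. The Lyz1 maximum was in hSKP2-KI replicate 4 and not in replicate 2, where Lyz2 was highest.

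The promoters of 7 of the 9 genes were matched by symbol in RefSeq tables of GRCm38.p6, and 250 bases before the annotated start were searched on both strands. The motifs were GAGGAA, a PU.1 core with flanking bases, TTGCNNAA, a form bound by C/EBP factors, and TGANTCA, the form bound by AP-1. GAGGAA was found for 4 of the 7 genes (Cd68, Mrc1, Fcgr1 and Ptprc) and in 23.3% of the 32851 promoters of this length, TTGCNNAA for 1 of 7 (Cd68) and in 9.56%, and TGANTCA for 1 of 7 (Cd68) and in 6.75%. The shares are per promoter, whereas the 7 genes have 8 promoters, and a second promoter of Ptprc holds no GAGGAA. Promoters of 3 members are shown from 5′ to 3′ on the strand of the gene with matches in capitals, for the members with the largest differences and for Mrc1, which holds the most GAGGAA matches. The positions are chr11:69666171-69666420 on the minus strand for Cd68, chr10:117282273-117282522 on the minus strand for Lyz2 and chr2:14229164-14229413 on the plus strand for Mrc1.
Cd68: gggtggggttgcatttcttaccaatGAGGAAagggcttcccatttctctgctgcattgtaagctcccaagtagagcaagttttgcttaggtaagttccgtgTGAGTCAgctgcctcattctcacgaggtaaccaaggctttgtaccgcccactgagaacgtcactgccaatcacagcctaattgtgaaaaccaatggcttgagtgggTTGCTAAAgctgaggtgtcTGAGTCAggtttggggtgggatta
Lyz2: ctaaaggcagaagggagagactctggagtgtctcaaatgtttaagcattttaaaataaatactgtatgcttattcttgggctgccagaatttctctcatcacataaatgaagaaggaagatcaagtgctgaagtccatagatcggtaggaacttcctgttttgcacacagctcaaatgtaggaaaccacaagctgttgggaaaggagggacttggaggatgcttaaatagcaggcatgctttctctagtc
Mrc1: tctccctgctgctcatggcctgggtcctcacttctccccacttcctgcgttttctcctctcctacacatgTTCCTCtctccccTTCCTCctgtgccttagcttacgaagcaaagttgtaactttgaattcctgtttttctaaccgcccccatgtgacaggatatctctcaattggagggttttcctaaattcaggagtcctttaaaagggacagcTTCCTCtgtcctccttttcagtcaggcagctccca
In Cd68 the GAGGAA match begins 225 bases before the start, the TGANTCA matches 149 and 24 bases before it, and the TTGCNNAA match 43 bases before it. In Mrc1 the 3 matches read TTCCTC, the reverse complement of GAGGAA, and begin 180, 167 and 35 bases before the start. None of the 3 motifs was found in the Lyz2 window, and other forms of these sites, such as a PU.1 core with other flanking bases, were not searched. Over the 8 mice, Lyz2 and Cd68 had the highest correlation of any pair of the 8 tested members (Pearson r = 0.99 after median-ratio scaling). A match describes the letters and not a bound site.

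The growth factor receptor and the mannose receptor were the other members called as deposited. Csf1r is the tyrosine kinase receptor for CSF1 and IL-34, on which macrophage survival depends. Csf1r was at 7.771, 14.16, 19.11 and 12.83 TPM in WT replicates 1 to 4 and at 15.91, 32.73, 22.63 and 19.1 TPM in hSKP2-KI replicates 1 to 4. WT replicate 3 reached the range of hSKP2-KI mice, and 2 of the 4 hSKP2-KI mice lay above all WT mice. The log2 fold change was 0.72 (standard error 0.25, 95% interval 0.16 to 1.27, limma adjusted p = 0.0482), just inside the threshold, and median-ratio scaling gave 0.47 (adjusted p = 0.252). Leaving out any of 6 of the 8 mice took Csf1r past 0.05, with adjusted p-values of 0.0605 to 0.122 (limma).

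Mrc1 encodes CD206, a lectin that removes mannose-tipped glycoproteins and marks many tissue-resident macrophages. Mrc1 was at 9.08, 14.62, 15.04 and 13.04 TPM in WT replicates 1 to 4 and at 14.08, 23.61, 25.77 and 21.96 TPM in hSKP2-KI replicates 1 to 4. In all, 3 hSKP2-KI mice lay above all WT mice, hSKP2-KI replicate 1 lay within the WT range, and unlike most members Mrc1 was not highest in hSKP2-KI replicate 2. The log2 fold change was 0.67 (standard error 0.19, 95% interval 0.25 to 1.09, limma adjusted p = 0.0234) and median-ratio scaling gave 0.42 (95% interval 0.03 to 0.80, adjusted p = 0.149). It did not pass as deposited when hSKP2-KI replicate 2, 3 or 4 or WT replicate 1 was left out, with adjusted p-values of 0.0527 to 0.0604 (limma).

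**Figure D2:**
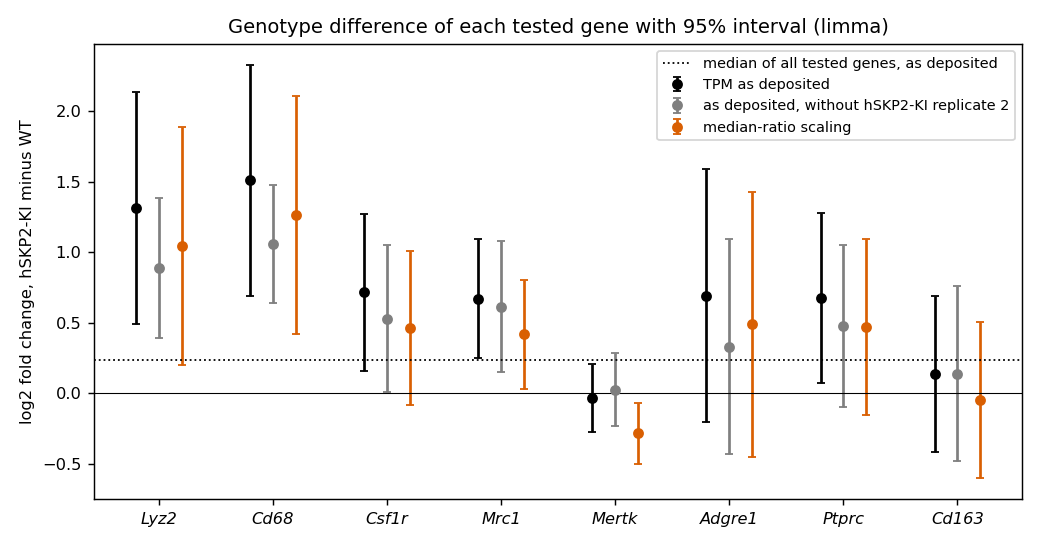
Log2 fold change (hSKP2-KI minus WT) of the 8 tested genes with 95% limma intervals, for TPM as deposited (black), as deposited without hSKP2-KI replicate 2 (grey) and after median-ratio scaling (orange), and the dotted line at the median of all tested genes. Intervals of Cd68, Lyz2 and Mrc1 lie above 0 in all 3, and that of Mertk lies below 0 after median-ratio scaling.

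Adgre1 and Ptprc, the general surface markers, varied widely among WT mice. Adgre1 encodes F4/80, the adhesion receptor most used to identify mouse macrophages. Adgre1 was at 1.287, 2.94, 6.943 and 1.946 TPM in WT replicates 1 to 4 and at 3.235, 12.12, 4.546 and 3.69 TPM in hSKP2-KI replicates 1 to 4. WT replicate 3 was above 3 of the 4 hSKP2-KI mice, and only hSKP2-KI replicate 2 was above all WT mice. Its log2 fold change was 0.69 (standard error 0.41, 95% interval -0.21 to 1.59, limma adjusted p = 0.189), and median-ratio scaling gave 0.49 (adjusted p = 0.498). As deposited it was 0.33 without hSKP2-KI replicate 2 (limma adjusted p = 0.457), 0.45 without WT replicate 1 and 1.05 without WT replicate 3 (limma adjusted p = 0.0576), and it was 0.14 with median-ratio scaling and hSKP2-KI replicate 2 left out.

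Ptprc encodes CD45, a phosphatase on the surface of all leukocytes. Ptprc was at 1.595, 2.57, 5.294 and 1.996 TPM in WT replicates 1 to 4 and at 3.717, 7.758, 4.52 and 3.993 TPM in hSKP2-KI replicates 1 to 4. As with Adgre1, WT replicate 3 was above 3 of the 4 hSKP2-KI mice. Its log2 fold change was 0.68 (95% interval 0.07 to 1.28, limma adjusted p = 0.0744), and median-ratio scaling gave 0.47 (adjusted p = 0.314). Ptprc passed the threshold when WT replicate 3 was left out (0.94, limma adjusted p = 0.0167). Adgre1 and Ptprc followed each other closely over the 8 mice, with a Pearson r of 0.98 after median-ratio scaling.

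The receptors for apoptotic cells and for haemoglobin had the smallest differences as deposited. Mertk is a receptor tyrosine kinase through which macrophages recognise apoptotic cells. Mertk was at 13.01, 14.78, 13.21 and 13.24 TPM in WT replicates 1 to 4 and at 11.64, 11.56, 14.6 and 15.52 TPM in hSKP2-KI replicates 1 to 4. The genotypes overlapped, with 2 hSKP2-KI mice below all WT mice and 1 above them. The log2 fold change was -0.03 (95% interval -0.28 to 0.21, limma adjusted p = 0.823), which is 0.27 below the median of all genes. After median-ratio scaling all 4 hSKP2-KI mice were below all WT mice, as were 8.91% of the tested genes, with a log2 fold change of -0.28 (95% interval -0.50 to -0.07, limma adjusted p = 0.0879). Mertk was the member least like the others, with a Pearson r of -0.85 against Cd68 and -0.416 against the mean of the 8 members over the 8 mice.

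Cd163 encodes the scavenger receptor that takes up haemoglobin bound to haptoglobin. Cd163 was at 1.328, 2.236, 3.635 and 1.758 TPM in WT replicates 1 to 4 and at 1.284, 2.416, 2.671 and 3.897 TPM in hSKP2-KI replicates 1 to 4. The ranges were nearly the same, and the order of the hSKP2-KI mice was not that of Cd68, with r = 0.07 between these genes after median-ratio scaling. The log2 fold change was 0.14 (95% interval -0.42 to 0.69, limma adjusted p = 0.672) as deposited, and -0.05 after median-ratio scaling.

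Fcgr1 encodes CD64, the high-affinity receptor for IgG. Fcgr1 was at 0.3587, 0.8432, 0.5975 and 0.4997 TPM in WT replicates 1 to 4 and at 0.6543, 1.58, 0.9756 and 0.6883 TPM in hSKP2-KI replicates 1 to 4. In all, 2 hSKP2-KI mice lay above all WT mice, and hSKP2-KI replicate 2 was the highest. The mean difference on the log2(TPM + 1) scale was 0.31 (two-sided exact permutation test over 70 assignments, p = 0.114, the smallest possible being 0.0286).

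In the order of mean levels, Cd68 and Mertk exchanged ranks between genotypes. In WT prostates the mean TPM was highest for Lyz2 at 71.9, followed by Mertk at 13.6, Csf1r at 13.5, Mrc1 at 12.9, Cd68 at 7.48, Adgre1 at 3.28, Ptprc at 2.86, Cd163 at 2.24 and Fcgr1 at 0.575. Only Lyz2 and Mertk, and Cd163 and Fcgr1, were neighbours whose ranges over the 4 mice did not overlap. In hSKP2-KI prostates Lyz2 was at 201.4, Cd68 at 27.0, Csf1r at 22.6, Mrc1 at 21.4, Mertk at 13.3, Adgre1 at 5.90, Ptprc at 4.997, Cd163 at 2.57 and Fcgr1 at 0.9746 TPM. There, Lyz2 and Cd68 were the only neighbours without overlap. By mean, Cd68 thus had rank 5 in WT and rank 2 in hSKP2-KI prostates, Mertk had rank 2 and rank 5, and the other 7 genes kept their ranks. The hSKP2-KI mean of Cd68 includes 59.13 TPM in replicate 2. In replicate 3 Cd68, at 18.1 TPM, was below Csf1r (22.63) and Mrc1 (25.77). In replicate 4, at 14.77 TPM, it was below Csf1r (19.1), Mrc1 (21.96) and Mertk (15.52).

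Individual mice carried much of the variation. Of the 9 genes, hSKP2-KI replicate 2 was the highest hSKP2-KI mouse for 6, WT replicate 3 the highest WT mouse for 7 and WT replicate 1 the lowest WT mouse for 9. The mean of the 8 tested genes, each standardised over the 8 mice after median-ratio scaling, was -0.96, -0.29, 0.66 and -0.61 in WT replicates 1 to 4 and -0.52, 1.06, 0.41 and 0.24 in hSKP2-KI replicates 1 to 4. WT replicate 3 was thus above 3 of the hSKP2-KI mice on this measure, and hSKP2-KI replicate 1 was below 2 of the WT mice. The genes whose levels were most like this mean over the 8 mice were Dock2 (r = 0.987), Gm8995 (0.977), E130102H24Rik (0.977), Krtdap (0.972), Wdfy4 (0.96), Fermt3 (0.959), D16Ertd472e (0.958), Cybb (0.958), Pirb (0.955) and Inpp5d (0.948). These r values describe 8 mice that share 2 genotypes and carry no test.

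A ratio of genes within a mouse does not depend on how its library was scaled. Relative to Adgre1, Cd68 was at 3.74, 2.58, 1.45 and 3.84 in WT replicates 1 to 4 and at 4.95, 4.88, 3.98 and 4.0 in hSKP2-KI replicates 1 to 4. Every hSKP2-KI ratio was above every WT ratio, including that of hSKP2-KI replicate 2, and the mean log2 ratio differed by 0.71. This reached the smallest p that the two-sided exact permutation test can give, 0.0286, and after adjustment over the 15 ratios tested it was 0.429. Relative to Ptprc, the log2 ratio of Cd68 differed by 0.74 (exact permutation p = 0.0571) and that of Lyz2 by 0.43 (exact permutation p = 0.114). The log2 ratios of Adgre1, Csf1r, Mrc1 and Fcgr1 to Ptprc differed by 0.02, -0.13, -0.18 and -0.16. Those of Mertk and Cd163 differed by -0.93 (exact permutation p = 0.114) and -0.70 (exact permutation p = 0.171), with the WT ratio of Mertk between 2.5 and 8.16 and the hSKP2-KI ratio between 1.49 and 3.89. Adjusted over the 15 ratios, 0 had a p under 0.05, and 1 had an unadjusted exact permutation p under 0.05.

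**Figure D3:**
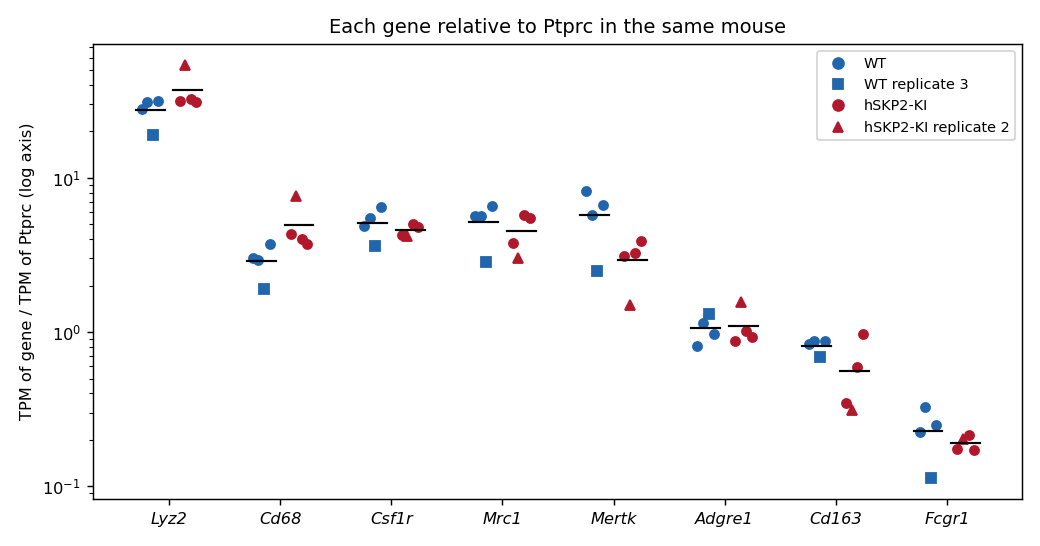
TPM of each gene divided by the TPM of Ptprc in the same mouse on a log axis, with WT in blue, hSKP2-KI in red and a black bar at the mean of 4 mice. The genotypes overlap for every gene shown, and hSKP2-KI replicate 2 (triangle) has the highest Cd68 ratio, 7.62, and the lowest Mertk ratio, 1.49.

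Other genes of macrophage biology were examined in 8 lists with 85 genes, of which 80 were tested. For each list below, the share of all genes higher is 32.7% as deposited and 6.91% after median-ratio scaling. With TPM as deposited, 52 of the 80 rose and 0 fell, against 32.7% higher among all genes, and the median log2 fold change was 0.75 against 0.234. After median-ratio scaling 14 of the 80 rose, against 6.91% of all genes, and their median was 0.52 against -0.007. All 80 log2 fold changes were above 0 as deposited, and 29 genes rose without WT replicate 1, against 21.7% of all genes. Without hSKP2-KI replicate 2, 36 of the 80 rose as deposited, against 22.3% of all genes, and with median-ratio scaling and hSKP2-KI replicate 2 left out 14 did, against 4.48%.

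Among growth factors, their receptors and lineage transcription factors, 5 of 10 tested genes rose as deposited and 1 did after median-ratio scaling, with a median log2 fold change of 0.60 as deposited. Csf1, the ligand of Csf1r, was at 4.2 to 8.167 TPM in WT and 8.125 to 12.96 TPM in hSKP2-KI prostates, a log2 fold change of 0.65 (limma adjusted p = 0.0212), and Il34, its other ligand, had a log2 fold change of 0.54 (limma adjusted p = 0.0496). Runx1, a haematopoietic transcription factor, was the gene that passed under both scalings, with 0.69 as deposited and 0.47 after scaling (limma adjusted p = 0.0159).

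Genes expressed across tissue macrophages rose in 15 of 19 cases as deposited, with a median of 0.88, and 1 of 19 passed after median-ratio scaling. The complement component C1qb, which opsonises debris, was at 15.98 to 36.74 TPM in WT and 38.45 to 87.5 TPM in hSKP2-KI prostates, without overlap and with a log2 fold change of 1.00 (limma adjusted p = 0.0204). Tyrobp, the DAP12 adaptor, and Ctss, the protease cathepsin S, rose by 1.15 and 1.2 (limma adjusted p = 0.0206 and 0.0363). Both were highest in hSKP2-KI replicate 2, at 73.44 and 98.34 TPM.

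Genes of resident subsets were the list with the highest median, 0.95, and 9 of 14 rose as deposited and 4 of 14 after median-ratio scaling. The 4 were Fcna, Pf4, Lyve1 and Clec10a. Fcna encodes ficolin A, a lectin of the complement system, and was at 13, 17.54, 16.73 and 21.42 TPM in WT replicates 1 to 4 and at 33.46, 48.13, 58.64 and 49.45 TPM in hSKP2-KI replicates 1 to 4. The genotypes did not overlap under either scaling, hSKP2-KI replicate 2 did not stand apart, and the log2 fold change was 1.41 as deposited (limma adjusted p = 0.000823) and 1.15 after scaling (limma adjusted p = 0.0036). Pf4, a chemokine also made by platelets, rose by 1.15 and 0.89 (limma adjusted p = 0.00157 and 0.00886). Lyve1, a hyaluronan receptor shared with lymphatic endothelium, rose by 1.12 and 0.88 (limma adjusted p = 0.0105 and 0.0425), and Clec10a, a lectin shared with dendritic cells, by 1.04 and 0.78 (limma adjusted p = 0.00498 and 0.0338). The chemokine Ccl8 had the largest value of the list, 1.60 (limma adjusted p = 0.0245), and WT replicate 3, at 14.97 TPM, overlapped the hSKP2-KI mice.

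Other genes of the apoptotic cell uptake route that Mertk serves rose. Of 7 tested genes in the uptake and scavenger receptor list, 5 rose as deposited and 4 after median-ratio scaling, with a median of 0.82. Gas6, the bridging ligand of Mertk and its relative Axl, was at 118.2, 149.2, 119.5 and 130.7 TPM in WT replicates 1 to 4 and at 230.0, 287.0, 189.4 and 221.3 TPM in hSKP2-KI replicates 1 to 4. The genotypes did not overlap, and the log2 fold change was 0.83 as deposited (limma adjusted p = 0.00186) and 0.56 after scaling (limma adjusted p = 0.0159). Axl rose by 0.82 and 0.56 (limma adjusted p = 0.00275 and 0.0152), Pros1, the other ligand, by 0.97 and 0.72 (limma adjusted p = 0.00387 and 0.0189), and Mfge8, a bridging protein for integrins, by 0.79 and 0.53 (limma adjusted p = 0.000905 and 0.00609). Tyro3, the last receptor of the family, was at 27.9 TPM in hSKP2-KI and 27.1 TPM in WT prostates, with a log2 fold change of 0.05 (limma adjusted p = 0.734). Gas6, Axl, Pros1 and Mfge8 are also made by stromal or epithelial cells, so their source in whole tissue cannot be told apart.

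The other Fc gamma receptors and their kinases had 2 of 5 tested genes higher as deposited (Fcgr2b and Syk), against 32.7% of all genes. After scaling 1 was higher (Fcgr2b), against 6.91%, and the median as deposited was 0.79. Fcgr2b, the inhibitory receptor, had a log2 fold change of 0.98 as deposited and 0.76 after scaling (limma adjusted p = 0.0106 and 0.05, the latter just under the threshold). Lysosomal genes rose in 7 of 10 cases as deposited, with a median of 0.49, and in 0 of 10 after median-ratio scaling (limma), where 2 were higher and 1 lower at an unadjusted p under 0.05. Lipa, the lysosomal acid lipase, had the largest value, 1.10 (limma adjusted p = 0.024), with 57.47 TPM in hSKP2-KI replicate 2 and at most 20.27 TPM in the other hSKP2-KI mice.

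Haem and iron handling was the list in which all 6 genes rose as deposited, with a median of 0.77, and 3 rose after scaling. Slc40a1, the iron exporter ferroportin, was at 3.577, 4.401, 3.075 and 5.507 TPM in WT replicates 1 to 4 and at 13.91, 11.29, 9.867 and 14.05 TPM in hSKP2-KI replicates 1 to 4. The genotypes did not overlap, hSKP2-KI replicate 2 lay inside the range of its group, and the log2 fold change was 1.38 as deposited and 1.15 after scaling (limma adjusted p = 0.000638 and 0.00303). Fth1, the ferritin heavy chain, rose by 0.80 and 0.53 and Blvrb, a biliverdin reductase, by 0.74 and 0.49, and both are expressed far beyond macrophages. Among other pan-leukocyte genes, 3 of 9 rose as deposited (Cd53, Cd52 and Arhgdib), close to the 32.7% of all genes, with a median of 0.59. After scaling 0 of 9 passed (limma), against 6.91% of all genes, and 1 was higher at an unadjusted p under 0.05.

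**Figure D4:**
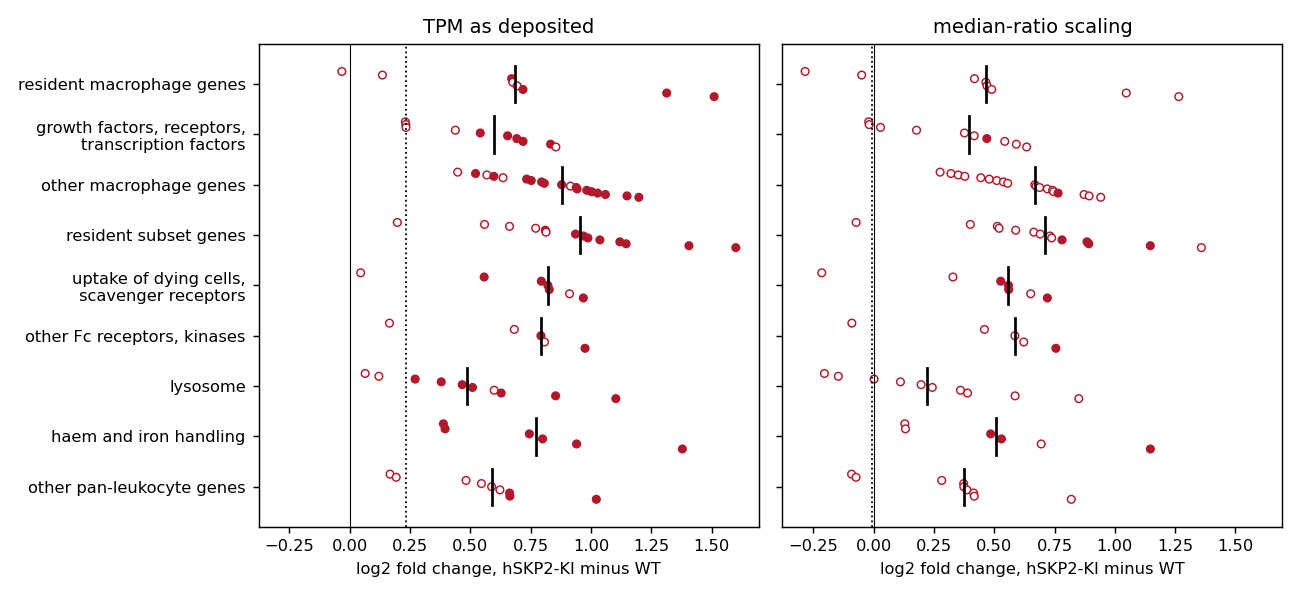
Log2 fold change (hSKP2-KI minus WT) of each tested gene in the resident macrophage list and 8 lists of other macrophage genes, as deposited and after median-ratio scaling, with filled points for an adjusted p under 0.05 (limma), a black bar at each list median and a dotted line at the median of all tested genes. Filled points remain after scaling in 6 of the 9 lists, and none remains among the resident macrophage, lysosome and pan-leukocyte genes.

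Markers of other cell types were examined in the same libraries, and their part in the results above was not tested. Beside each count of higher markers, 32.7% of all genes were higher as deposited and 6.91% after median-ratio scaling. Lipid-associated macrophage genes, which mark phagocytes loaded with lipid, rose in 4 of 9 tested cases as deposited and 2 after scaling, with a median of 0.63. Acp5, a lysosomal acid phosphatase, was the largest of them, at 10.68 to 14.29 TPM in WT and 44.39 to 53.97 TPM in hSKP2-KI prostates (log2 fold change 1.94, limma adjusted p = 2.11e-06). Spp1, the secreted phosphoprotein osteopontin, had a log2 fold change of -0.98 as deposited and -1.18 after scaling (limma adjusted p = 0.0812 and 0.116), and Fabp5, a fatty acid binding protein, had -0.08 as deposited. Without hSKP2-KI replicate 2, 5 genes of the list rose and Spp1 fell as deposited (limma adjusted p = 0.0344), as it did without WT replicate 4 (limma adjusted p = 0.019). Trem2, the lipid receptor that defines this state, was at 40.88 TPM in hSKP2-KI replicate 2 and at 4.665 to 10.02 TPM in the other 3 hSKP2-KI mice. Its WT range was 2.357 to 4.763 TPM. The mouse with the highest Cd68 and Lyz2 was thus also the one with the highest Trem2.

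Of other blood-derived cells, monocyte markers rose in 2 of 3 tested cases (Ccr2 and Plac8) as deposited, against 32.7% of all genes. The third, Ly6c2, had a log2 fold change of -0.26 as deposited and -0.41 after scaling (limma adjusted p = 0.514 and 0.475). Without WT replicate 1, Ly6c2 was lower at an adjusted p under 0.05 (limma). The summed levels of the monocyte list were 3.945 to 6.908 TPM in WT and 6.812 to 14.45 TPM in hSKP2-KI prostates. This sum includes Chil3, which was not tested. It was at 0 TPM in every WT mouse and at 4.235 and 5.403 TPM in hSKP2-KI replicates 3 and 4. Of the 8 neutrophil markers, 0 reached the level for testing, and none exceeded 3.479 TPM in any library. As deposited, their summed level was higher in every hSKP2-KI mouse (1.43 to 6.064 TPM) than in every WT mouse (0.37 to 1.373 TPM). Such non-overlap was found for 34.0% of all tested genes as deposited. After median-ratio scaling the summed levels overlapped, with S100a8 at 1.041 in WT replicate 1 and 0.506 in hSKP2-KI replicate 4. As deposited, S100a8 was highest in hSKP2-KI replicate 2, at 3.479 TPM, the mouse with the highest Lyz2. Neutrophils also make Lyz2, and their part in its level was not tested. Mast cell markers rose in 3 of 4 cases and T cell markers in 2 of 3, beside the same 32.7% of all genes, with Trac listed at 0 in all 8 libraries. B cell markers rose in 0 of 4 cases, natural killer cell markers in 0 of 2 and dendritic cell markers in 0 of 2 (limma), with 0, 0 and 1 higher at an unadjusted p under 0.05. The summed B cell level was 22.66 TPM in WT replicate 3, above every other library, and this is the WT mouse in which Ptprc and Adgre1 were highest. After median-ratio scaling 0 genes of these 7 lists passed (limma), and at an unadjusted p under 0.05 there were 2 monocyte, 3 mast cell and 2 T cell genes, all higher.

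For stromal, endothelial and epithelial markers the same shares of all genes apply, 32.7% higher as deposited and 6.91% after scaling. Fibroblast markers rose in 6 of 6 cases as deposited, with a median of 0.88, and in 2 after scaling (Lum and Dcn), and their summed level was 419.9 to 605.2 TPM in WT and 759.1 to 1333 TPM in hSKP2-KI prostates. Blood endothelial markers rose in 3 of 5 and lymphatic endothelial markers in 2 of 3 cases as deposited, and 1 of each list passed after scaling. Epithelial markers rose in 2 of 4 cases with a median of 0.26, close to that of all genes, and in 0 of 4 after scaling (limma). Adipocyte markers changed in 0 of 3 cases under either scaling (limma), and neither count of 0 was different at an unadjusted p under 0.05. The 4 secretory genes were lower in all hSKP2-KI mice than in all WT mice under both scalings, as were 8.91% of all tested genes after median-ratio scaling. As deposited, 2 of them, Pbsn and Spink1, fell at an adjusted p under 0.05 (limma), as did 161 of the 13080 tested genes. After median-ratio scaling 1 of them, Pbsn, fell, as did 556 of the 13080, and Spink1 had an adjusted p of 0.0788 (limma). Pbsn carries the SKP2 insertion in hSKP2-KI mice, and the part of the insertion in its fall was not tested.

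**Figure D5:**
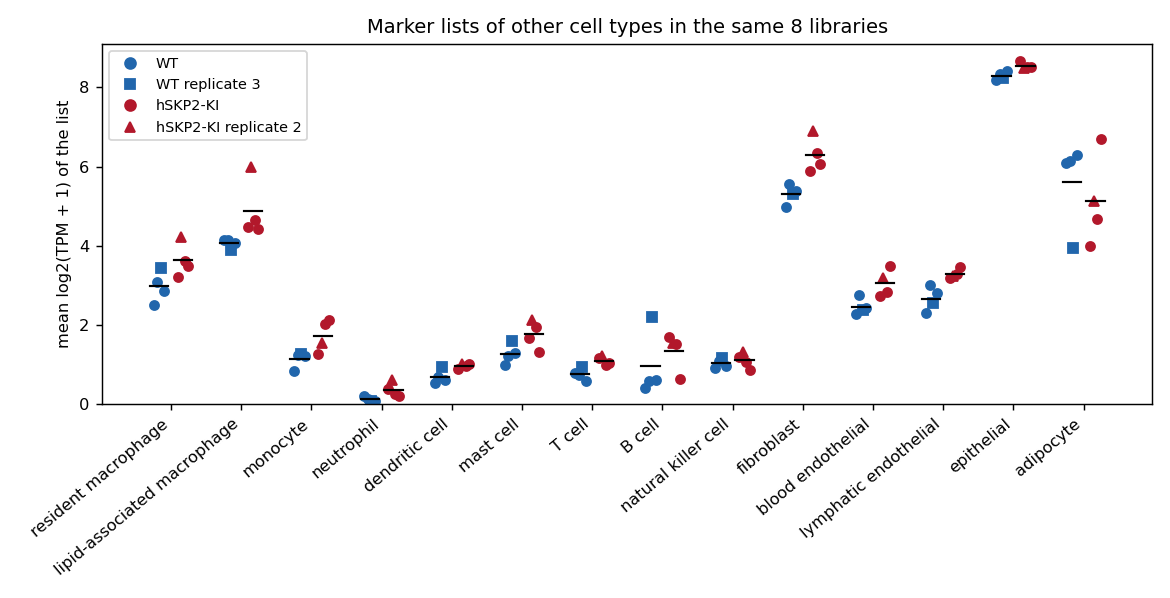
Mean log2(TPM + 1) of each marker list in each mouse, with WT in blue, hSKP2-KI in red and a black bar at the mean of 4 mice. In hSKP2-KI replicate 2 (triangle) the resident macrophage, lipid-associated macrophage and fibroblast lists have their highest values of the 8 mice, 4.22, 5.98 and 6.9. The neutrophil, mast cell, T cell and natural killer cell lists also peak in it, at 0.61, 2.12, 1.22 and 1.32. The monocyte, blood endothelial, lymphatic endothelial and adipocyte lists peak in hSKP2-KI replicate 4, and WT replicate 3 (square) has the highest B cell value, 2.2.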

How the data were processed

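Ventral prostate RNA of 8 mice was sequenced by the authors after poly-T selection, as paired-end libraries that were trimmed and mapped in CLC software. The builds named in the submitters' processing notes are mm10 and GRCm38, and the software version, annotation and counting options are not given in the sources used here. The authors deposited TPM for 36333 genes, with 0 columns of other samples. TPM keeps no depth, so count models and intervals from counts were not used.

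The 13080 genes that reached a TPM of 1 in no fewer than 4 libraries were fitted as log2(TPM + 1) with limma 3.58.1 (R 4.3.3, mean-variance trend, genotype only), with Benjamini-Hochberg adjustment over all of them and a threshold of 0.05. Ratios of members and the difference of Fcgr1 were compared with two-sided exact permutation tests. Scripts were tested on simulated data. Alternatives were a replicate block, leaving out each mouse, median-ratio scaling, rescaling with the 20 most abundant genes removed, quantile normalization, a pseudocount of 0.1, no filter and a filter on a mean TPM of 5. Median-ratio scaling without hSKP2-KI replicate 2 was added after seeing the data. Whether separate litters or batches were used is not given in the labels, and p-values measure the spread between mice.

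The 9 members, 8 lists of other macrophage genes and 14 lists of cell type markers were chosen with earlier results of these data known. Named genes are the members, Skp2, Pbsn, in each list up to 5 genes with an adjusted p under 0.05 and the largest log2 fold change, and the 10 genes most like the mean of the members. A few genes that this rule would name are not reported here. Lyz1, Tyro3, Trem2, Spp1, Fabp5, Ly6c2, Chil3, S100a8 and Trac were named after their values were seen. Deviations of same-numbered mice of the 2 genotypes had correlations of 0.22, -0.11, 0.17 and -0.01 across genes. Without the same values for unmatched mice this cannot show whether replicate numbers pair the mice, and the labels do not say. Sequences and positions are from RefSeq tables of GRCm38.p6. Software for sequences and figures was Python 3.11.15 with matplotlib 3.10.9 and scipy 1.17.1.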

Additional observations from a re-analysis of the deposited data

Results flagged for a closer look

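Among 18 groups of 4 mice (9 genes in 2 genotypes), some held a mouse far from the other 3, measured as its gap to the nearest mouse over the whole range of the group. Chance alone gives about 1 in 20 such groups. On the log2(TPM + 1) scale there were 2 of 18. Cd68 in hSKP2-KI replicate 2, at 59.13 TPM, had a gap of 0.857 of the range, and Mertk in WT replicate 2, at 14.78 TPM, a gap of 0.863, although all 4 WT mice lay between 13.01 and 14.78 TPM. On the TPM scale there were 4 of 18. The gap was 0.925 of the range for Cd68, 0.905 for Lyz2 and 0.852 for Adgre1, all in hSKP2-KI replicate 2, and 0.87 for Mertk in WT replicate 2.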

How the results depend on the processing

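The number of resident macrophage genes called, 4 of 8 as deposited, was 0 under median-ratio scaling, quantile normalization and rescaling without the 20 most abundant genes (limma), where 3, 3 and 2 genes were higher and 1 lower at an unadjusted p under 0.05. It was 1 with no filter on low values, where 23826 genes share the adjustment, and 1 under median-ratio scaling without hSKP2-KI replicate 2. Leaving out 1 mouse gave 1 (without WT replicate 1) to 5 (without WT replicate 3), and 2 without hSKP2-KI replicate 2, 3 or 4. Among all tested genes, 904 of 13080 were higher under median-ratio scaling and 709 of 13080 under quantile normalization. Without the 20 most abundant genes 887 of 13060 were higher, and with no filter 3255 of 23826. Under median-ratio scaling without hSKP2-KI replicate 2, 586 of 13080 were. Leaving out 1 mouse gave 2839 (without WT replicate 1) to 4548 (without WT replicate 2) of 13080, and 2876 without WT replicate 3. The other macrophage genes called, 52 as deposited, were 14 under median-ratio scaling, 13 under quantile normalization, 12 without the 20 most abundant genes, 29 with no filter, 14 under median-ratio scaling without hSKP2-KI replicate 2, and 29 (without WT replicate 1) to 54 with 1 mouse left out. The replicate block gave 5 and 63, with 5128 of all tested genes called against 4433 without it. Whether the block reflects a pairing of mice is not known, and Ptprc was the member it added (limma adjusted p = 0.0473). Some small ratios changed sign. With a pseudocount of 1 the log2 ratio of Csf1r turned to 0.04 relative to Ptprc and to 0.02 relative to Adgre1. With 1 mouse left out, Adgre1 to Ptprc ranged from -0.16 to 0.13, Fcgr1 to Ptprc from -0.47 to 0.05, Csf1r to Adgre1 from -0.42 to 0.07 and Mrc1 to Adgre1 from -0.59 to 0.15. The other ratios kept their direction under these alternatives. Cd163 turned to -0.05 under median-ratio scaling, -0.18 under quantile normalization, -0.04 without the 20 most abundant genes and -0.04 under median-ratio scaling without hSKP2-KI replicate 2, and it ranged from -0.03 to 0.33 with 1 mouse left out. Mertk ranged from -0.10 to 0.03 with 1 mouse left out. The cause was not tested. Depth is unknown, so low genes such as Fcgr1 carry an error that cannot be given.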
